A study of Mus musculus with 6 samples.

Results

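The genes of the mitochondrial respiratory chain and ATP synthase were described in RNA-seq of whole mouse cerebellum. Members were the protein-coding genes whose symbols begin with the stems of the chain's subunits: Nduf with a subunit letter for complex I, Sdh for complex II, Uqcr for complex III, the nuclear Cox subunits for complex IV, Atp5 for complex V, and mt- for the proteins encoded by mitochondrial DNA. The rule found 98 genes among the 55098 listed, 85 nuclear and 13 mitochondrial. It used names only and no measured value. Ndufa4, Ndufa4l2 and Cox7a2l were counted with complex IV. Cyc1, Cycs, Ndufab1 and the assembly factors have other names and are described as separate lists.

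The study compared 3 libraries labelled Slc39a14 knock-out (KO, animals 2, 4 and 6) with 3 labelled wild type (WT, animals 1, 3 and 5), all from male mice at postnatal day 60. Slc39a14 encodes ZIP14, a membrane transporter of manganese, zinc and iron. The series title presents the mice as modelling a childhood dystonia with parkinsonism brought on by manganese. The sources used here do not give which part of the gene the knock-out removes, the strain, or any manganese exposure.

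Slc39a14 itself had 654, 572 and 640 counts in the libraries labelled KO 2, 4 and 6, against 582, 646 and 598 in WT 1, 3 and 5. The groups overlapped, and its log2 fold change, KO over WT, was -0.004 with a standard error of 0.11. The RNA count over the whole gene therefore did not separate the genotypes, and without the deleted part it does not check the labels. KO and WT below are the labels, and each direction rests on them. Library totals ran from 13805997 to 15788135 counts. Each of the 10 granule cell and 10 Purkinje cell markers listed had enough counts to be tested. None of them was called or had an unadjusted p under 0.05 by edgeR. The granule cell markers all had negative log2 fold changes, and their median was -0.12. Their sum was 6489 to 6676 CPM (counts scaled to library size with TMM, edgeR's composition factor) in KO libraries, against 6928 to 7323 CPM in WT libraries, without overlap. Of the Purkinje cell markers, 9 had positive values, and their sums of 8056 to 9390 CPM in KO libraries and 7622 to 8620 CPM in WT libraries overlapped. The choroid plexus list stood highest in KO 4, with a sum of 2267, 3313 and 1062 CPM in KO 2, 4 and 6 and of 1395, 599 and 452 in WT 1, 3 and 5. None of the 15 genes of that list was at 0 in all libraries. By edgeR 14 had an unadjusted p under 0.05, against 2.75% of all genes tested, and none was called. All 15 had positive log2 fold changes, with a median of 1.31. The microglia list summed to 150 to 197 CPM in KO libraries and 120 to 131 in WT libraries. Its 10 genes all had positive log2 fold changes, with a median of 0.47. Of them, 5 had an unadjusted p under 0.05 by edgeR and none was called. The part of these cells in the results below was not tested.

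The respiratory chain passes electrons from NADH (complex I) and succinate (complex II) through complex III to oxygen at complex IV, and pumps protons that complex V uses to make ATP. Complex II is encoded wholly in the nucleus, while the others join nuclear subunits with proteins made from mitochondrial DNA. Mitochondrial RNA is transcribed in long stretches covering many genes and then cut into single messages. The cerebellum depends heavily on oxidative phosphorylation, and excess manganese is known to collect in mitochondria. In bulk tissue, fewer cells of a type and less RNA per cell cannot be told apart.

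No respiratory chain gene passed the test for a difference between the libraries labelled KO and WT. Of the 98 genes, 93 had enough counts to be tested, 81 nuclear and 12 mitochondrial. None was called by edgeR's quasi-likelihood test at an adjusted p under 0.05, where 0.0467% of the 17142 genes tested were called. The smallest adjusted p of a member was 1.00 by edgeR. Only Ndufa3 had an unadjusted p under 0.05, against 2.75% of all genes tested. The authors' deposited table likewise gives no member an adjusted p under 0.05, and its smallest adjusted p among the 96 members with a value is 1.00.

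The nuclear genes had a median log2 fold change of -0.0004, KO over WT, with 40 positive and 41 negative values from -0.29 to 0.32. The median over all genes tested was -0.004. The mitochondrial genes had a median of 0.04, with 9 positive and 3 negative values from -0.15 to 0.35. That mitochondrial median depended on single libraries. It was -0.16 without KO 4, -0.06 without WT 3, 0.18 without KO 6, 0.24 without WT 5 and 0.08 without KO 2. Without WT 1 it was 0.01. Without both KO 4 and WT 5 it was -0.02. The nuclear median stayed between -0.06 (without WT 5) and 0.05 (without KO 4) with any single library left out.

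The intervals show which fold changes remained compatible with the counts. They do not give the size of change that the test could call. The 95% interval of the fold change lay within 1.5-fold in either direction for 71 of 81 nuclear genes (87.7%) and for 6 of 12 mitochondrial genes. Among genes that averaged 10 CPM or more, it did so for 71 of 76 nuclear members (93.4%) and for 91.7% of all genes tested. The absolute log2 fold change was under 0.1 for 64 of those 76 members (84.2%), against 69.5% of all genes tested above that minimum. The sets were not matched for level: the median was 71.4 CPM for the members and 46.1 CPM for all genes. For mt-Co3 the interval ran from -0.34 to 1.03 on the log2 scale, and for mt-Nd4l from -0.875 to 0.58. Changes up to those ends remained compatible with the counts of these mitochondrial genes, with 3 libraries per group. What size of change could be called in these genes was not tested.

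**Figure D1:**
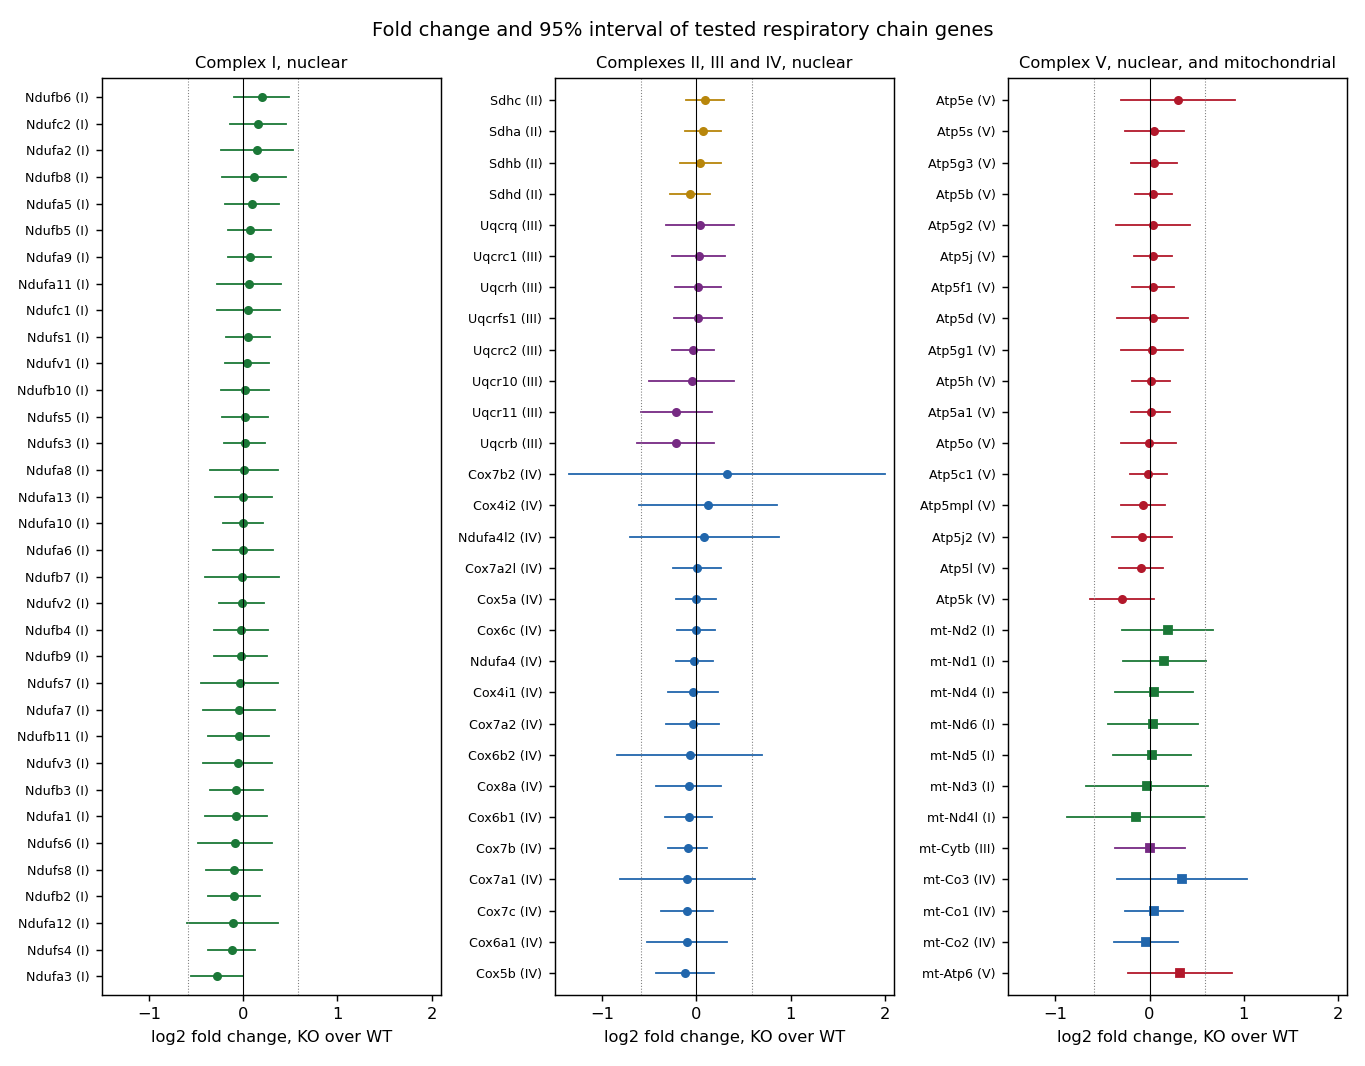
Log2 fold change, KO over WT, of 92 of the 93 tested genes (points; squares are mitochondrial genes) with the 95% interval of the edgeR fit (lines), grouped and coloured by complex. Dotted lines mark 1.5-fold in either direction; the interval of Ndufa3 alone leaves out 0, and the widest intervals belong to scarce isoforms such as Cox7b2.

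Complex I, the NADH dehydrogenase, had 35 nuclear genes, all tested. Their median log2 fold change was 0.002, with 18 positive and 17 negative, and it ran from -0.049 without WT 5 to 0.068 without WT 3. Ndufs5, an accessory subunit and one of the most abundant per length, stood at 70.5 ± 4.42 FPKM (the authors' level per gene length and library total) in libraries labelled KO and 70.3 ± 6.73 in WT (SD, n = 3 each). It had 67.3, 59.3 and 64.8 CPM in KO 2, 4 and 6, against 59.2, 70.0 and 59.8 CPM in WT 1, 3 and 5. The groups overlapped, and the log2 fold change was 0.02 with a standard error of 0.11. Per length, levels in the complex reached down to 6.68 ± 0.786 FPKM in KO and 7.22 ± 0.624 FPKM in WT for Ndufb2, listed with 5628 bases. Not divided by length, Ndufb2 had means of 39.5 CPM in KO and 42.3 CPM in WT, near the median of 45.3 CPM of these genes.

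Ndufa3, an accessory subunit of complex I, was the member nearest to a difference. It had 27.9, 30.2 and 35.9 CPM in KO 2, 4 and 6, against 37.5, 38.1 and 38.4 CPM in WT 1, 3 and 5. Every library labelled KO lay below every library labelled WT. The log2 fold change was -0.28 with a standard error of 0.12, an unadjusted p of 0.0458 and an adjusted p of 1.00 by edgeR. In the authors' deposited table its p is 0.0586. It was the only one of the 93 tested members whose groups did not overlap (1.08%), where 7.26% of all genes tested did not overlap, 3.69% with KO lower. Without KO 2, KO 4 or any single WT library, with library totals in place of TMM, with no filter on low counts or by DESeq2, its unadjusted p was not under 0.05. Ndufa3 lies on chromosome 7 and overlaps the opposite-strand gene Tfpt by 4 bases. The sources used here do not say whether the counts keep the strand.

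Complex II, succinate dehydrogenase, has 4 genes and was the steadiest of the complexes. Its summed level was 606, 607 and 603 CPM in KO 2, 4 and 6, against 562, 593 and 596 CPM in WT 1, 3 and 5. The KO libraries all stood above the WT libraries, by 1.04-fold in the mean, and no test was made of this sum. The spread within WT alone was 1.06-fold. Sdha, the flavoprotein that oxidizes succinate, had 366, 376 and 358 CPM in KO libraries and 327, 353 and 368 CPM in WT libraries. Its log2 fold change was 0.07 with a standard error of 0.09. Sdhd, a membrane anchor, had 71.2, 64.9 and 73.7 CPM in KO and 73.0, 71.6 and 75.0 CPM in WT, with a log2 fold change of -0.07. The other anchor, Sdhc, had a log2 fold change of 0.09, and the iron-sulfur subunit Sdhb one of 0.04.

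Complex III, which hands electrons from ubiquinol to cytochrome c, had 8 nuclear genes with a median log2 fold change of -0.01, 4 positive and 4 negative, and it ran from -0.082 without WT 5 to 0.085 without WT 1. Uqcr10, a small subunit, had 53.7, 46.0 and 58.7 CPM in KO libraries and 72.7, 52.5 and 38.5 CPM in WT libraries. Its highest and its lowest value were both in WT. Uqcrh, the hinge protein, had 112, 106 and 124 CPM in KO and 125, 111 and 101 CPM in WT. The most negative values of the complex were those of Uqcrb (-0.22, standard error 0.18) and Uqcr11 (-0.21, standard error 0.17). Uqcrb had 50.9, 50.8 and 32.1 CPM in KO and 44.0, 53.8 and 58.0 CPM in WT, so that KO 6 alone stood below the rest. The core subunits Uqcrc1 and Uqcrc2 and the Rieske iron-sulfur protein gene Uqcrfs1 lay between -0.04 and 0.02.

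Complex IV, cytochrome c oxidase, held the most abundant nuclear members per length. Cox8a reached 381 ± 61.7 FPKM in KO and 407 ± 71.1 FPKM in WT, and Cox6a1 reached 260 ± 44.0 FPKM in KO and 281 ± 71.7 FPKM in WT (SD, n = 3 each). Cox8a had 226, 179 and 249 CPM in KO 2, 4 and 6, against 241, 266 and 185 CPM in WT 1, 3 and 5. Cox6a1 had 197, 158 and 222 CPM in KO, against 244, 229 and 145 CPM in WT. KO 4 and WT 5 were the lowest of their groups for both genes, and the groups overlapped. Of the 17 tested nuclear genes of this complex, 13 had negative log2 fold changes, with a median of -0.04. That median turned positive without WT 1 (0.025) or KO 4 (0.0008) and was -0.11 without KO 6, -0.125 without WT 5 and -0.013 without WT 3. None had an unadjusted p under 0.05.

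Several complex IV subunits exist as a widespread form and a form restricted to certain tissues. Cox4i2, a form known from lung and oxygen-sensing cells, made up 1.54% ± 0.489 of the summed Cox4i1 and Cox4i2 FPKM in KO libraries and 1.35% ± 0.195 in WT libraries (SD, n = 3 each, as below). Cox7a1, the heart and muscle form, made up 3.55% ± 0.983 of Cox7a1 and Cox7a2 in KO and 3.75% ± 0.927 in WT. Cox6b2, the testis form, made up 2.22% ± 0.625 of its pair in KO and 2.13% ± 0.752 in WT. Cox7b2 made up 1.46% ± 0.816 of its pair in KO and 1.07% ± 1.00 in WT. Ndufa4l2, a hypoxia-induced relative of Ndufa4, made up 0.852% ± 0.108 of that pair in KO and 0.787% ± 0.173 in WT. Each of these differences was smaller than the spread between libraries, and the widespread forms carried over 95% of each sum in every library.

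Cox8b, the heart and muscle form of Cox8, had 5, 12 and 7 counts in KO 2, 4 and 6, against 4, 1 and 1 in WT 1, 3 and 5. The shares of KO libraries, from 0.209% to 0.700% of the summed Cox8 FPKM, lay above those of WT libraries, from 0.0362% to 0.182%. With so few counts the gene did not enter the test. The authors' deposited table gives it a log2 fold change of 1.96 with a p of 0.0772 and an adjusted p of 1.00. Cox6a2, the muscle form of Cox6a, also fell under the minimum, with at most 0.430 CPM in KO and 0.446 CPM in WT. Cox8c had no count in any library, nor did a second, shorter entry named Atp5o on chromosome 16. The fifth untested member was the mitochondrial gene mt-Atp8.

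Complex V, the ATP synthase, had 18 nuclear genes, of which 17 were tested, with a median log2 fold change of 0.02 and 11 positive and 6 negative values. The median turned negative without KO 6 (-0.013), WT 3 (-0.0007) or WT 5 (-0.047), and was 0.067 without WT 1, 0.048 without KO 4 and 0.015 without KO 2. The alpha and beta subunits led it. Atp5b, the beta subunit, had 1121, 1041 and 1143 CPM in KO 2, 4 and 6, against 1108, 1099 and 1005 CPM in WT 1, 3 and 5. Atp5a1, the alpha subunit, had 828, 773 and 832 CPM in KO, against 853, 825 and 737 CPM in WT. Per length they stood at 247 ± 11.9 and 246 ± 9.80 FPKM in KO and at 242 ± 11.5 and 246 ± 17.2 FPKM in WT. Their log2 fold changes were 0.04 and 0.01, each with a standard error of 0.09.

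The most negative and one of the most positive values of the nuclear genes were also in complex V. Atp5k, subunit e of the membrane part, had 16.2, 16.9 and 21.8 CPM in KO and 21.9, 24.6 and 20.7 CPM in WT. The groups overlapped through KO 6, and the log2 fold change was -0.29 with a standard error of 0.15 and an unadjusted p of 0.0831. Atp5e, the epsilon subunit, had 62.4, 44.7 and 65.1 CPM in KO and 64.7, 26.7 and 48.3 CPM in WT, with a log2 fold change of 0.30 and a standard error of 0.27. WT 3 was the lowest library for Atp5e. The c subunit of the rotor comes from 3 genes that give the same mature protein. Atp5g3 made up 60.4% ± 1.19 of their summed FPKM in KO and 60.6% ± 3.63 in WT. Atp5g2 made up 25.7% ± 1.44 of that sum in KO and 25.4% ± 3.02 in WT. Atp5g1 made up 13.8% ± 0.399 in KO and 14.0% ± 0.888 in WT. The order of Atp5g2 and Atp5g1 depends on their listed lengths of 1675 and 4912 bases. Not divided by length, Atp5g1 stood above Atp5g2. Its means were 84.8 CPM in KO and 83.3 CPM in WT, against 53.5 and 52.2 CPM for Atp5g2.

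The mitochondrial genes varied far more between animals than between the labels. Their summed level was 29537, 40488 and 25505 CPM in KO 2, 4 and 6, against 29858, 26762 and 34748 CPM in WT 1, 3 and 5. The means were 31843 ± 7753 in the KO libraries and 30456 ± 4026 in the WT libraries (SD, 3 libraries each), and the range within KO, 1.59-fold, held all WT libraries. The nuclear genes summed to 8632, 8035 and 8945 CPM in KO and to 9002, 8751 and 7842 CPM in WT, with means of 8537 ± 462 CPM in KO and 8532 ± 610 CPM in WT. The ratio of mitochondrial to nuclear CPM was 3.42, 5.04 and 2.85 in KO and 3.32, 3.06 and 4.43 in WT. KO 4 and WT 5 had the highest mitochondrial sums and the lowest nuclear sums. The mitochondrial sums and the ratio depend on how reads that also match copies in the nuclear genome, described below, were counted. The sources used here do not give this.

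**Figure D2:**
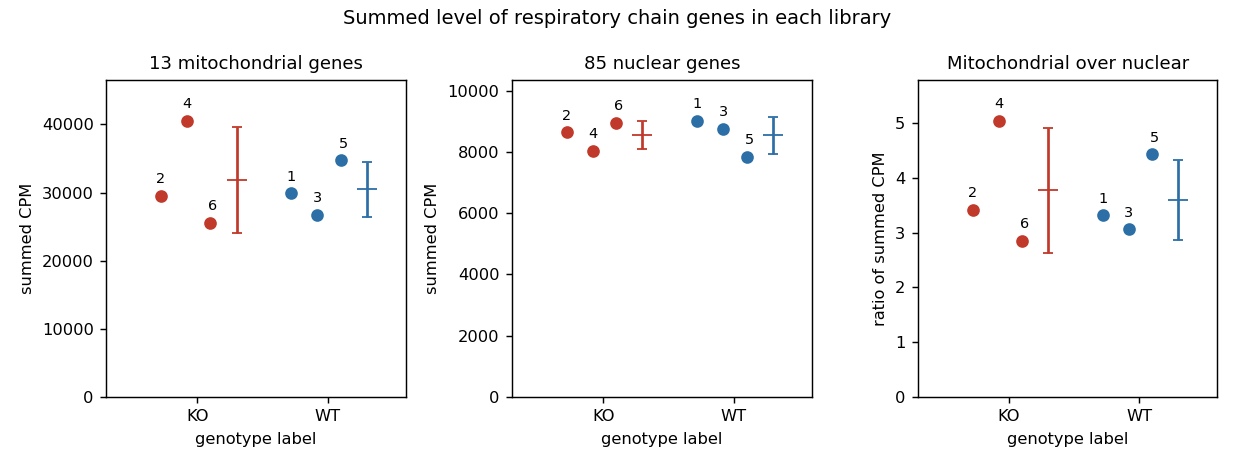
Summed CPM of the 13 mitochondrial genes, of the 85 nuclear genes and their ratio in each library (points, numbered by animal), with the mean and SD of each label beside them (3 libraries each). KO 4 and WT 5 are the highest in the mitochondrial panel and the lowest in the nuclear panel, and KO and WT overlap in all panels.

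The same libraries stood out gene by gene. Deviations here are log2(CPM + 1) minus the mean of the gene over the 6 libraries. The median deviation of the 12 mitochondrial genes was -0.04, 0.44 and -0.28 in KO 2, 4 and 6 and -0.14, -0.19 and 0.26 in WT 1, 3 and 5. KO 4 was the highest library for 9 of the 12 genes and WT 5 for the other 3. The lowest was KO 6 for 8 genes and WT 1 for 4. The 81 nuclear genes had median deviations of 0.01, -0.08 and 0.11 in KO 2, 4 and 6 and 0.10, 0.07 and -0.13 in WT 1, 3 and 5. WT 5 was the lowest library for 33 of them (40.7%), against 21.4% of all genes tested, and KO 4 for 21 (25.9%), against 21.8%.

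**Figure D3:**
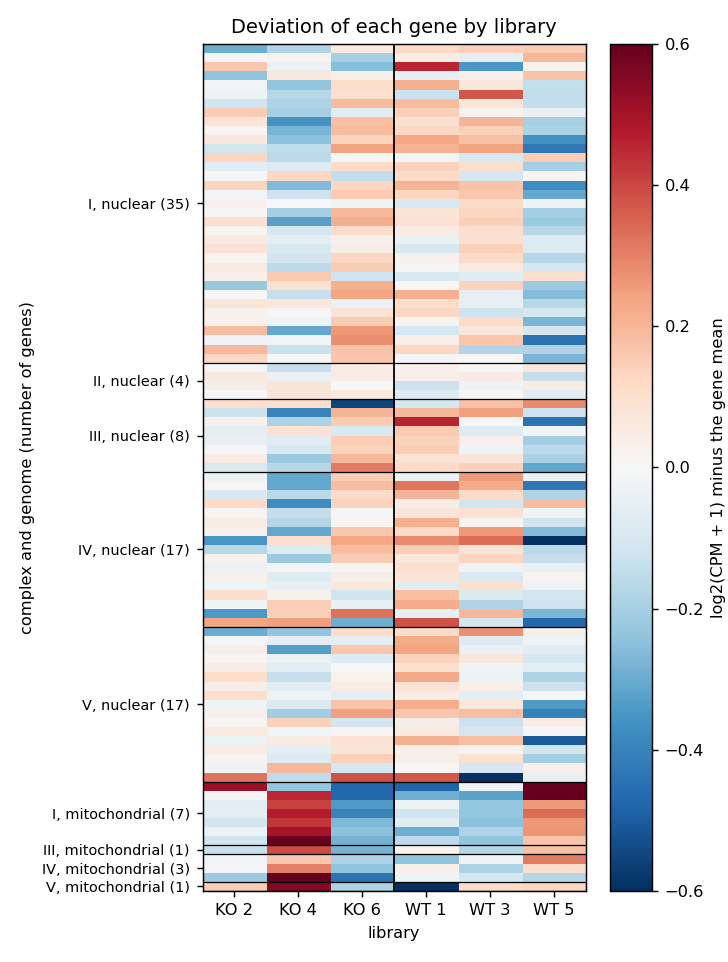
Deviation of each of the 93 tested genes, as log2(CPM + 1) minus the mean of the gene over 6 libraries (colour, cut at 0.6 in either direction), by library and grouped by complex and genome. Most of the mitochondrial rows at the bottom are high in KO 4 and WT 5, where most nuclear rows outside complex II are low.

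The nuclear deviations in KO 4, KO 6 and WT 5 were smallest in the longest genes, and not in these genes alone. The nuclear members are short, with a median gene length of 1688 bases against 5025 bases for other protein-coding genes of at least 10 CPM. Among the 19 shortest members of that level, from 419 to 1022 bases, the median deviation was 0.01, -0.18 and 0.16 in KO 2, 4 and 6 and 0.12, 0.14 and -0.15 in WT 1, 3 and 5. In the ranges between these and the longest, it was -0.09 and -0.10 in KO 4, 0.11 and 0.11 in KO 6, and -0.14 and -0.17 in WT 5. Among the 19 longest, from 2552 to 8086 bases, the median deviation was 0.03, -0.02 and 0.03 in KO and 0.05, -0.02 and -0.03 in WT. The 107 other protein-coding genes in the shortest range moved the same way, with -0.11 in KO 4, 0.11 in KO 6 and -0.16 in WT 5. For the 6388 others in the longest range these were -0.03, 0.02 and -0.02. Complex II, with medians between -0.02 and 0.04 in all libraries, has 3 genes of 2239 to 4126 bases and Sdhd of 1231 bases. Sdhd was lowest in KO 4 (64.9 CPM) and highest in WT 5 (75.0 CPM). The part of length in the values of complex II was not tested.

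**Figure D4:**
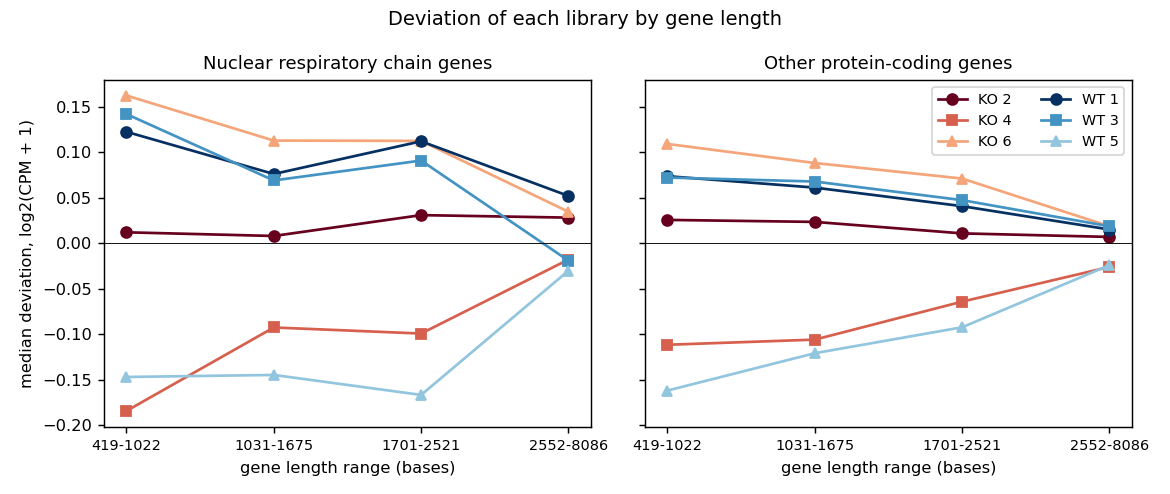
Median deviation, in log2(CPM + 1), of nuclear respiratory chain genes (left; 19 genes a point) and of other protein-coding genes (right) of at least 10 CPM, in 4 ranges of gene length, with a line per library. In both panels KO 4 and WT 5 lie lowest for short genes and the lines close up for the longest.

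The mitochondrial genes fell into levels that differed by far more than any difference between labels. The highest was mt-Co1, the catalytic subunit of complex IV, at 8225 ± 1572 FPKM in KO libraries and 8048 ± 853 FPKM in WT libraries (SD, 3 libraries each). It carried 39.8% to 44.7% of the summed mitochondrial CPM of a library. That share depends on how reads that also match nuclear copies of mitochondrial genes, described below, were counted. mt-Cytb, cytochrome b of complex III, had 3914 ± 1014 FPKM in KO and 3938 ± 493 in WT. The complex I genes mt-Nd1 and mt-Nd2 had 3765 and 2832 FPKM in KO and 3415 and 2505 FPKM in WT. mt-Nd4, mt-Nd5 and mt-Nd6 had 1782, 1695 and 1458 FPKM in KO and 1741, 1687 and 1439 FPKM in WT. mt-Nd6, the only protein gene on the other strand, stood close to mt-Nd5, with which it shares 14 bases. mt-Co1 lay above mt-Cytb in every library, and from mt-Cytb downwards the ranges of neighbours in this order overlapped.

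The other 6 genes stood far lower. mt-Co2 had 94.1 ± 11.4 FPKM in KO and 97.6 ± 19.8 in WT, mt-Atp6 had 95.1 ± 25.1 in KO and 77.0 ± 24.5 in WT, and mt-Nd3 had 90.6 ± 29.3 in KO and 93.6 ± 39.5 in WT. mt-Co3 had 79.3 ± 45.5 FPKM in KO and 63.0 ± 2.88 in WT, mt-Nd4l had 66.9 ± 26.2 in KO and 75.3 ± 33.3 in WT, and mt-Atp8 had 3.09 ± 1.09 in KO and 2.34 ± 1.58 in WT. The first 5 of these overlapped in their spread, and mt-Atp8 lay below them. They lie next to each other on the mitochondrial genome, from mt-Co2 to mt-Nd4l, at positions 7013 to 10173.

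The transcripts of 5 of these genes have near-identical copies in the nuclear genome. A stretch of chromosome 1 (chr1:24611535-24616197, GRCm38, minus strand) holds 7 annotated pseudogenes that copy mitochondrial DNA in the same order, from part of mt-Co1 to part of mt-Nd4. For mt-Co2, mt-Atp6, mt-Co3, mt-Nd3 and mt-Nd4l, at least 90% of the gene lay in a match of at least 99% identity. These are the 5 genes between 63.0 and 97.6 FPKM in WT. No gene above them had such a copy over its length: mt-Nd4 had 876 of its 1378 bases in an identical match, mt-Co1 had 483 of 1545 in a match of at least 99% identity, and mt-Nd1, mt-Nd2, mt-Nd5, mt-Nd6 and mt-Cytb had none of that identity. The annotated copy covers 43 bases of mt-Atp8, and the 233 bases between the copies of mt-Co2 and mt-Atp6 are about as long as the 230 bases between the genes themselves.

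The beginnings of these genes and of their copies are shown because they make plain what a read would have to tell apart. Each line gives the 90 bases from the start of the coding sequence, 5′ to 3′ on the coding strand, from GENCODE transcripts on GRCm38, and capitals mark bases that differ. The lines of mt-Co2 (chrMT:7013-7696, plus strand) and its chromosome 1 copy Gm28661 (chr1:24614885-24615565, minus strand) are the same.
mt-Co2: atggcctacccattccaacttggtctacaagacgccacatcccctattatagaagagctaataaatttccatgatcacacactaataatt
Gm28661: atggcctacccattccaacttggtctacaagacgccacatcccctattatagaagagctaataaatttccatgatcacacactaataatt
mt-Nd3 (chrMT:9459-9806, plus strand) differs from its copy Gm28438 (chr1:24612775-24613119, minus strand) by T3C, with the mitochondrial base first and positions counted from 1 at the start of the gene. That is the only difference over the 345 bases matched.
mt-Nd3: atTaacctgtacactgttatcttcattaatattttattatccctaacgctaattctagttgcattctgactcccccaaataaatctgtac
Gm28438: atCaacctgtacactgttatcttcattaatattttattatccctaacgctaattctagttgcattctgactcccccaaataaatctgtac
The abundant mt-Co1 (chrMT:5328-6872, plus strand) has a full-length copy on chromosome 2, Gm13340 (chr2:22588103-22589647), that matches it at 97.6%. Within the first 90 bases they differ by C54A, A60G and G87A.
mt-Co1: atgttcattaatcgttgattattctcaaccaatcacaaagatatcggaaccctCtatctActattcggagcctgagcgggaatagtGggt
Gm13340: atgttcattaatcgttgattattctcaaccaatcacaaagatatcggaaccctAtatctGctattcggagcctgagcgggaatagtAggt
mt-Nd6 (chrMT:13552-14070, minus strand) and its copy Gm11408 on chromosome 4 (chr4:80003396-80003914) match at 93.6% and differ here by A24G, T48C and A76G.
mt-Nd6: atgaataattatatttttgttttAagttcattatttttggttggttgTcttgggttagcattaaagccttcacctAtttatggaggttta
Gm11408: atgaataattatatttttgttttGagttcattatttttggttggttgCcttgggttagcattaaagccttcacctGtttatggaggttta

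The counts of the copies stood beside those of the genes as follows. Gm28661, identical to mt-Co2, averaged 59.5 CPM over the 6 libraries, beside 68.6 CPM for mt-Co2 itself. Gm10925, identical to mt-Atp6, averaged 55.7 CPM beside 61.3 CPM for the gene. The other 3 copies of this kind stood lower: Gm28437 averaged 30.3 CPM beside 58.4 CPM for mt-Co3, Gm10222 averaged 6.70 CPM beside 22.1 CPM for mt-Nd4l, and Gm28438 had 48, 77 and 46 counts in KO and 50, 50 and 59 in WT, beside 514, 636 and 320 counts in KO and 359, 401 and 685 in WT for mt-Nd3. Gm13340 averaged 8.18 CPM beside 13157 CPM for mt-Co1, and Gm11408 had no count in any library beside 786 CPM for mt-Nd6. The sources used here do not say how reads that match several places were counted, so the values of mt-Co2, mt-Atp6, mt-Co3, mt-Nd3 and mt-Nd4l cannot be told apart from those of their copies.

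**Figure D5:**
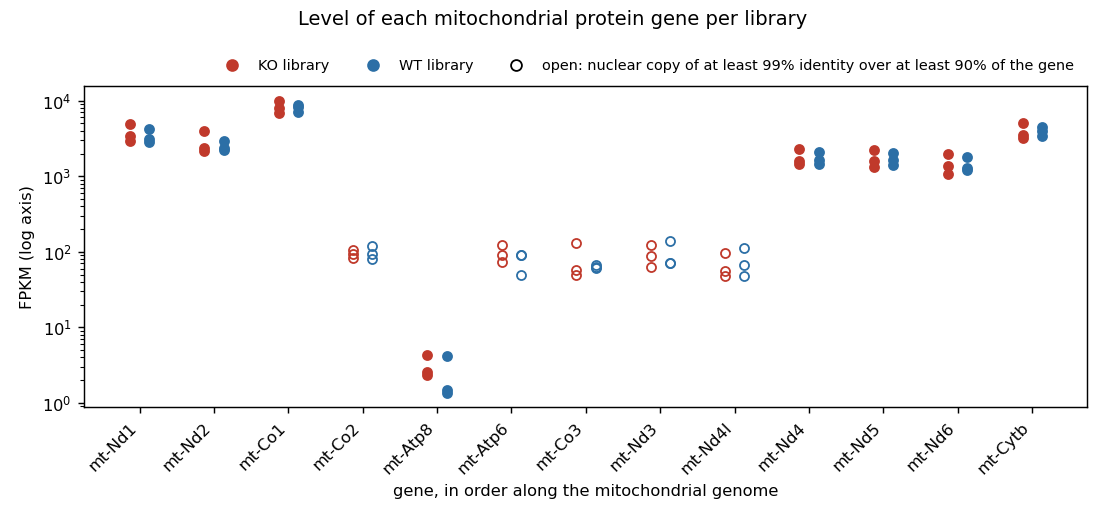
FPKM (log axis) of the 13 mitochondrial protein genes in each library, in order along the mitochondrial genome. Open points mark the 5 genes with a nuclear copy of at least 99% identity over at least 90% of the gene, which lie between 63.0 and 97.6 in the WT mean; mt-Atp8, with 43 bases in such a match, is drawn filled.

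The highest and the lowest mitochondrial fold changes were among these 5 genes. mt-Co3 had 47.4, 108 and 40.3 CPM in KO 2, 4 and 6, against 54.2, 51.3 and 48.9 CPM in WT 1, 3 and 5. Its log2 fold change of 0.35, with a standard error of 0.31, came with KO 4 at the top and the other KO libraries below all WT libraries. mt-Atp6 had 65.5, 87.2 and 51.7 CPM in KO, against 34.7, 64.1 and 64.8 CPM in WT, with a log2 fold change of 0.32 and a standard error of 0.25. mt-Nd4l had 30.3, 17.6 and 14.8 CPM in KO, against 14.7, 20.6 and 34.5 CPM in WT. mt-Nd3 had 32.3, 44.3 and 22.9 CPM in KO, against 26.0, 25.5 and 50.1 CPM in WT, and mt-Co2 had 67.2, 76.1 and 59.7 CPM in KO, against 57.3, 66.8 and 84.2 CPM in WT. mt-Atp8 had 8, 8 and 13 counts in KO and 4, 5 and 12 in WT and was not tested.

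The 7 abundant genes had log2 fold changes from 0.006 to 0.19. mt-Nd1 had 3443, 4960 and 2966 CPM in KO, against 2878, 3093 and 4231 CPM in WT, with a log2 fold change of 0.16 (standard error 0.20). mt-Nd2 had 2598, 4355 and 2322 CPM in KO, against 2535, 2399 and 3185 CPM in WT, with a log2 fold change of 0.19 (standard error 0.21). In both, KO 4 was the highest library and WT 5 the next. mt-Nd4 had 2311, 3363 and 2074 CPM in KO, against 2389, 2105 and 2996 CPM in WT. mt-Nd5 had 3036, 4212 and 2510 CPM in KO, against 3110, 2704 and 3797 CPM in WT, and mt-Nd6 had 741, 1066 and 581 CPM in KO, against 707, 654 and 970 CPM in WT. mt-Cytb had 4229, 6094 and 3807 CPM in KO, against 4702, 4119 and 5251 CPM in WT, and mt-Co1 had 12937, 16104 and 11057 CPM in KO, against 13350, 11462 and 14035 CPM in WT. The log2 fold changes of these last 5 lay between 0.006 and 0.05, and every one had KO 4 at the top.

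Nuclear members have copies of another kind, processed pseudogenes that arise when a message is copied back into the genome. Of the tested nuclear members, 13 had a pseudogene with at least 97% identity over at least 200 bases. The copies took over 5% of the summed counts for 6 of them: 60.5% for Ndufa12, 20.8% for Atp5l, 20.6% for Atp5g1, 16.5% for Atp5h, 7.99% for Cox7a2l and 5.79% for Uqcrb. Matches annotated as protein-coding were left out of this count. Among them Gm11273 matches Cox5b at 99.2% over 390 bases. It had 282 counts in KO and 336 in WT, beside 3093 and 3306 for Cox5b. Ndufa12, an accessory subunit of complex I, had 18.7, 16.2 and 13.8 CPM in KO and 23.1, 12.8 and 16.8 CPM in WT, while its copy Gm15920 had 21.3, 23.1 and 27.9 CPM in KO and 22.2, 37.8 and 21.4 CPM in WT. WT 3 was the lowest library for the gene and the highest for the copy. Gene and copies together gave log2 values, KO over WT, from -0.21 for Uqcrb to 0.04 for Atp5g2. The strand also limits 27 tested nuclear members, which overlap a gene on the opposite strand.

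Cox7a2l, which encodes a protein that joins complexes III and IV into a supercomplex, stood opposite to a copy between libraries; it was singled out after its values were seen. Its processed pseudogene Gm6969 had 3, 2 and 175 counts in KO 2, 4 and 6, against 8, 200 and 163 in WT 1, 3 and 5. KO 6, WT 3 and WT 5 were thus high and the other 3 libraries nearly without counts, irrespective of label. Cox7a2l had 77.8, 73.6 and 66.6 CPM in KO, against 82.1, 68.1 and 67.0 CPM in WT. The 3 libraries with a high copy were the 3 lowest for the gene. Gene and copy together had 78.0, 73.7 and 79.1 CPM in KO, against 82.6, 80.9 and 78.9 CPM in WT.

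The stretch in which the copy and the gene differ is shown because these are the bases that set them apart. Lines are from GENCODE transcripts on GRCm38, 5′ to 3′, within the coding sequence, and capitals mark the bases that are not shared. Gm6969 (chr12:24638669-24639010, minus strand) is 6 bases longer here than Cox7a2l (chr17:83501919-83514333, minus strand).
Cox7a2l: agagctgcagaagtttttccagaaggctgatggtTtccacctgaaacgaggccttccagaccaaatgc
Gm6969: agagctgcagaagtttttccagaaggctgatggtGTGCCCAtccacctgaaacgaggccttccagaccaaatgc
Laboratory mouse strains are known to carry either a long or a short allele of Cox7a2l, and the C57BL/6 reference has the short form. The sources used here give no strain, and which allele these animals carry was not tested.

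Promoters of the nuclear genes were searched to describe their sequence, and no link between a motif and the differences between libraries was tested. RefSeq promoter sequences (GRCm38.p6, 250 bases before to 50 after the start) were matched for 66 of the nuclear symbols. All letters were sought on both strands. GCGCNTGCG, from the site of NRF1, an activator of respiratory genes, was in 23 of the 66 (34.8%), against 7.05% of 26959 other genes. CCGGAAGT, a site of the ETS factor GABPA (also called NRF2 alpha), was in 5 (7.58%), against 4.30%. AAGATGGCG, from the site of YY1, was in 7 (10.6%), against 1.62%. At least 1 of these was in 32 members (48.5%), against 11.9% of other genes. A match is a description of letters and says nothing of binding in these animals.

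Ndufs6, a complex I accessory subunit, is shown as a promoter with 2 of the motifs (chr13:73328433-73328732, minus strand; capitals mark GCGCNTGCG and then AAGATGGCG).
Ndufs6: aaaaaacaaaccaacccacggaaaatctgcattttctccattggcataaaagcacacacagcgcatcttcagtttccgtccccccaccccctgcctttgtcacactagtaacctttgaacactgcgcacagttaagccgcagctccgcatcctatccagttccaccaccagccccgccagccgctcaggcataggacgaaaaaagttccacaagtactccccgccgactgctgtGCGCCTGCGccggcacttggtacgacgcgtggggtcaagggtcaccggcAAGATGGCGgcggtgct
The window of Ndufa3, the member nearest to a difference, holds none of the 3 motifs (chr7:3617123-3617422, plus strand).
Ndufa3: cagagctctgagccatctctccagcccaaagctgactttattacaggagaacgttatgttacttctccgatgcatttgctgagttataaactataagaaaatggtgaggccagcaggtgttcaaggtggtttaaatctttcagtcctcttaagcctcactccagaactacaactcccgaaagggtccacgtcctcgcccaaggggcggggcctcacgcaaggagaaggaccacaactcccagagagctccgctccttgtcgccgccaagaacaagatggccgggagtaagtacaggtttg
Ndufs6 had 16.8, 15.2 and 18.6 CPM in KO and 15.6, 22.6 and 15.4 CPM in WT, with a log2 fold change of -0.09 and a standard error of 0.18.

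None of the genes around the chain passed the test either. In 10 further lists, none of them holding a member, no gene was called in either direction by edgeR and none had an unadjusted p under 0.05. The lists were other subunits (8 tested, median log2 fold change 0.07), assembly factors of complex I (18, 0.008), complex II (4, 0.10), complex III (6, -0.08), complex IV (20, 0.03) and complex V (3, 0.04), expression of mitochondrial DNA (30, 0.02), regulators of mitochondrial biogenesis (16, 0.01), the citric acid cycle (17, 0.005) and carriers (10, 0.03). The smallest p of all was that of Atpaf2, an assembly factor of the ATP synthase, with 22.5, 19.4 and 21.4 CPM in KO 2, 4 and 6, against 17.1, 19.9 and 13.5 CPM in WT 1, 3 and 5. Its log2 fold change was 0.33 with a standard error of 0.16 and an unadjusted p of 0.0702. Timmdc1, a complex I assembly factor, had a log2 fold change of -0.27 with a standard error of 0.15. Mgme1, a nuclease that maintains mitochondrial DNA, had 5.84, 5.15 and 6.59 CPM in KO, against 7.60, 8.34 and 6.44 CPM in WT. Ppargc1b, a co-activator of mitochondrial biogenesis, had 31.4, 27.9 and 39.7 CPM in KO, against 45.6, 34.7 and 39.8 CPM in WT. The groups of these 4 genes overlapped, and their p-values were not under 0.05.
In the remaining lists the smallest p belonged to genes with small values: Atpif1, the inhibitor of the ATP synthase (log2 fold change 0.16), Sdhaf2 (0.11), Ttc19 (-0.11), Surf1 (0.18), the citric acid cycle enzyme Idh3a (0.09) and the carrier Slc25a27 (-0.10).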

How the data were processed

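RNA was extracted with TRIZOL and libraries were made by a company, per the labels. Per the submitters' processing notes, HISAT2 and DESeq2 were used on the build GRCm38.p6. The authors deposited raw counts per gene, FPKM per library, group means as a normalized signal, log2 fold changes and p-values. The sources used here give neither read length, strand nor counting program.

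Tests on the counts used edgeR 4.0.16 (R 4.3.3; quasi-likelihood F test, TMM, filterByExpr by group, Benjamini-Hochberg adjustment over 17142 genes), which was tested on simulated data. CPM are TMM-scaled; intervals come from the standard error of that fit. Log2 fold changes, deviations (pseudocount 1 CPM) and sums are KO against WT labels, 3 libraries each. Each library is a separate animal by its title. FPKM, which divide by gene length, were used for levels between genes. 1 gene is not reported here. Copies were found with blastn 2.17.0 among GENCODE transcripts.

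The members and lists were chosen with earlier results of these data known. Named genes were Slc39a14, every mitochondrial gene, the 2 nuclear genes of highest FPKM per complex, members with an unadjusted p under 0.05, tissue isoforms, untested members and the gene of smallest p in each further list; other genes were chosen after their values were seen.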

Additional observations from a re-analysis of the deposited data

How the results depend on the processing

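No respiratory chain gene was called under any of the alternatives: DESeq2's size factors, library totals, TMM without mitochondrial genes, no filter, protein-coding genes only, DESeq2, limma-voom, each library left out, and KO 4 and WT 5 left out together. Over all genes the count of calls moved: 8 by edgeR as reported, 142 with no filter, 38 by DESeq2, 40 without KO 4 and WT 5, and 0 to 28 with a single library left out. The median of complex II, 0.055 on the log2 scale as reported, was 0.073 with library totals, 0.039 without KO 4 and WT 5, and 0.034 to 0.082 with a single library left out; the cause was not tested. The nuclear median ran from -0.06 to 0.05 and the mitochondrial median from -0.16 to 0.24 with a single library left out. Unadjusted p under 0.05 fell on Ndufa3 in 5 of these settings, on mt-Co3, mt-Atp6, Atp5e and Cox8b with no filter, and on Ndufb8, Uqcr11, Atp5k, Atp5e or mt-Co3 in some that left libraries out. Of 36 named genes, none changed sign under the scalings, filters or DESeq2, 2 did under limma-voom, 4 to 14 with a library left out and 19 without KO 4 and WT 5. Leaving libraries out of the sums and isoform shares was added after seeing the data and moved none by more than their spread. No paired analysis was possible because KO and WT libraries share no animal number. With 3 libraries per group, depth limits the scarce isoforms (Cox8b, Cox6a2, Cox7b2) and mt-Atp8 most.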
